A study of Mus musculus with 4 samples.

Results

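Capillary endothelial cells were selected by their transcripts from the stromal vascular fraction (SVF) of brown adipose tissue (BAT) in mice, where they made up 2306 of the 28887 cells that passed quality control. A cell was taken as capillary when Gpihbp1, Cdh5, Cldn5, Kdr and Flt1 together gave at least 40 UMIs per 10000, a UMI being a molecule tag that marks 1 captured transcript. Its macrophage genes (Lyz2, C1qa, C1qb, C1qc) had to sum to under 20 and its stromal genes (Col1a1, Col1a2, Col3a1, Dcn, Gsn) to under 30 UMIs per 10000. Genes of arteries and veins (Vwf, Ackr1, Selp, Gja5, Hey1, Sema3g) and of cycling cells (Mki67, Top2a, Birc5, Cdk1, Ube2c) had to give fewer than 3 UMIs each as a group. Levels of these genes chose the cells and are a description only. The threshold cut a continuous range, since 219 members scored 40 to 50 and 309 cells scored 30 to 40, of which 226 were in HFD. These 309 passed quality control, and the limits on other genes were not applied to them.

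Single-cell RNA-seq was carried out on the SVF of mice in 4 libraries, 1 per group. The study's methods give the strain as C57BL6/J for wild-type mice and B6.BKS(D)-Leprdb/J for db/db mice. The groups were wild-type (WT) mice at 10 weeks of age, db/db mice at 8 weeks (written as db/db 8w) and at 16 weeks (db/db 16w), and wild-type mice on a high-fat diet (HFD), which are labelled as 10 weeks old although the study's methods start the diet at that age. db/db mice lack a working leptin receptor, overeat and become obese and diabetic. Each library pooled the SVF of 3 animals, so no spread between animals can be seen. Since each group is 1 library, nothing was tested. Every interval is a 95% interval that covers counting error only, and a difference between groups cannot be told apart from a difference between libraries.

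Capillary endothelial cells line the smallest vessels and are the surface through which blood-borne fat reaches the adipocyte. In BAT, Gpihbp1 on their luminal face holds lipoprotein lipase (Lpl), which frees fatty acids from circulating lipoproteins, Cd36 takes these up, and Fabp4 carries them through the cytoplasm.

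The label was checked on markers that the rule did not use, against the cells under the endothelial threshold as background. After every cell was thinned to 500 UMIs, 10 of 10 further endothelial markers and 7 of 7 markers of fat capillaries were found in a higher share of members than of the cells under the threshold, in db/db 16w and in HFD. Pecam1, a junction protein of all endothelium, was found in 38.6% of the db/db 16w members and 37.4% of the HFD members, against 1.20% and 4.79% of the cells under the endothelial threshold. Cd300lg, a marker of fat capillaries, was found in 49.0% and 33.6% of members, against 2.01% and 4.31% of the cells under the threshold. Fabp4 was present in 99.9% and 100% of members, against 42.0% and 66.4%. The lymphatic regulator Prox1 was found in 0.150% and 0.109% of members, against 0% (exact binomial upper limit 0.0834%) and 0.0722%. None of 5 macrophage and 5 stromal markers was found in a higher share of members in either library, and the leukocyte gene Ptprc was found in 0.450% and 1.85%. Lymphatic, mural and adipocyte markers went against the label in part. Of 5 lymphatic markers 2 were found in a higher share of members in db/db 16w and 1 in HFD. Each of the 5 was found in at most 0.375% of the db/db 16w members. Of 5 mural markers 2 were found in a higher share of members in db/db 16w and 4 in HFD. Rgs5 was found in 16.0% and 22.9% of members against 1.52% and 6.62% of the cells under the threshold, whereas Pdgfrb, a pericyte receptor, was lower in members of both libraries (0.300% and 1.30% against 4.39% and 4.16%). All 5 adipocyte markers were found in a higher share of members in HFD, led by Ucp1 at 9.45% against 2.24%, and 4 of 5 were in db/db 16w, where each was found in at most 0.150% of members. In db/db 8w, 10 of 10 endothelial and 7 of 7 fat capillary markers were found in a higher share of members. In WT, with 5 members, 5 of 10 and 7 of 7 were.

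**Figure D1:**
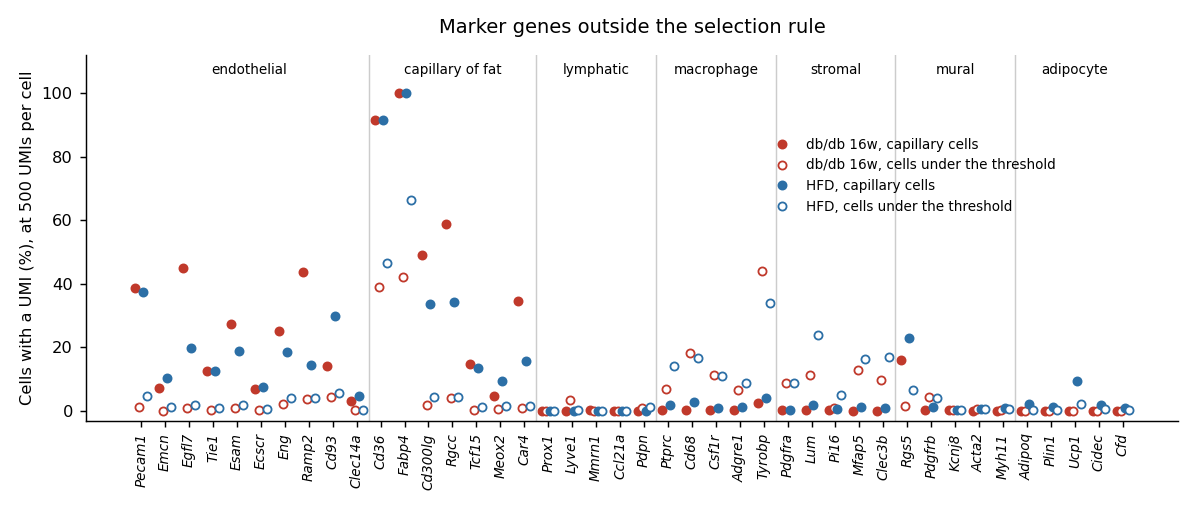
Percent of cells with at least 1 UMI of each marker after thinning to 500 UMIs per cell, for capillary cells (filled) and cells under the endothelial threshold (open) of db/db 16w and HFD. Pecam1 and Cd300lg were found in over 30% of capillary cells of both libraries, Prox1 in under 1%, and the adipocyte gene Ucp1 in 9.45% of the HFD and 0.0750% of the db/db 16w capillary cells.

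The libraries differed in ways that bear on the values below. Median depth per capillary cell was 4220 UMIs in HFD but 973 in db/db 16w, against 2494 in WT and 1795 in db/db 8w. In the order WT, 8w, 16w and HFD, used for every run of 4 values from here on, the median mitochondrial share was 11.5%, 10.3%, 1.45% and 11.7%. The db/db 16w library went against the all-male statement of the study's methods. Xist, expressed from the inactive X of females, was found in 142 of its 1334 capillary cells and Y-linked genes in 70, with both in 1, whereas in HFD Xist was found in 3 and Y-linked genes in 526 of 921 cells. Haemoglobin transcripts made up 7.89% of the capillary UMIs of db/db 16w, at most 0.214% of those of the other libraries, and 220 db/db 16w members held at least 20 such UMIs per 10000. A UMI of an adipocyte marker was found in 757 HFD members (82.2%), 48 db/db 16w members (3.60%), 2 db/db 8w members and no WT member. The libraries shared 16 to 97 cell barcodes per pair, of which 1 was capillary in both libraries.

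Capillary cells were common in db/db 16w and HFD and close to missing from the others. They were 5 of 5944 cells in WT (0.0841%, exact binomial interval 0.0273 to 0.196), 46 of 11648 in db/db 8w (0.395%, with limits of 0.289 and 0.526), 1334 of 5833 in db/db 16w (22.9%, with limits of 21.8 and 24.0) and 921 of 5462 in HFD (16.9%, with limits of 15.9 and 17.9). The latter pair held 97.8% of all members. The gap within this pair depended on the threshold, since the shares were 24.3% in db/db 16w and 19.8% in HFD with 20 UMIs per 10000 and 17.3% and 3.63% with 80. With every cell thinned to 500 UMIs, which left out none, the shares were 21.9% and 16.3%. With every cell thinned to 1000 UMIs the order turned, to 13.9% and 18.0%, after 1119 db/db 16w and 9 HFD cells under that depth were left out. Other endothelial classes also differed: arterial and venous cells numbered 18 in db/db 16w and 213 in HFD, which is 1.33% and 18.8% of capillary plus arterial and venous cells. The same share was 28.6% in WT (2 cells) and 20.7% in db/db 8w (12 cells), and the class was set by a number of UMIs in cells whose depth was lowest in db/db 16w. Cycling endothelial cells numbered 1 in db/db 16w and 54 in HFD.

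**Figure D2:**
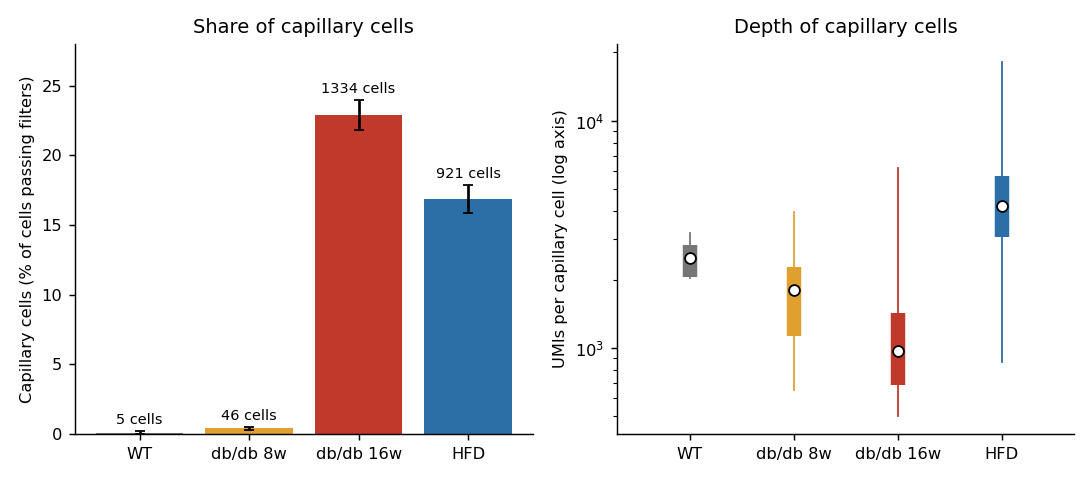
Left, capillary cells as a percent of quality-passing cells in each library, with exact binomial 95% intervals and cell numbers. Right, UMIs per capillary cell on a log axis (line, minimum to maximum; bar, quartiles; dot, median), with the median at 973 in db/db 16w and 4220 in HFD.

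Gene levels were obtained by summing the UMIs of all capillary cells of a library and expressing them as CPM, that is, as counts scaled to the same library total. These sums held 12631, 84515, 1604561 and 4322586 UMIs, so that 3 counts came to 238, 35.5, 1.87 and 0.694 CPM. A gene was called when it differed by more than 2-fold with an interval of the ratio that left out 1, among genes at 50 CPM or more in either library and with over 3 counts in either. Between HFD and db/db 16w, the pair with the most cells, 606 of 3622 genes (16.7%) were called higher in HFD and 350 (9.66%) lower, with a median log2 ratio of 0.17 over all genes. Of these calls 63.4% were on the higher side. That split moved to 45.7% under median-of-ratios scaling, where the median of all genes was −0.08, to 73.6% without mitochondrial genes, ribosomal protein genes and Malat1, where it was 0.29, and to 52.4% in cells under 20 haemoglobin UMIs per 10000, where it was −0.01. Without the 142 db/db 16w cells with Xist, 644 genes were called higher and 357 lower. Most db/db 16w members held neither Xist nor a Y-linked UMI, so their sex is unknown and these counts cannot show what part it had. Against only the 70 cells with a Y-linked UMI there were 335 and 528, and with db/db 8w in place of db/db 16w there were 275 (7.36%) and 347 (9.29%). The profile of the cells under the threshold was also subtracted, scaled to 1.5% in db/db 16w and 3.8% in HFD. This scale came from the macrophage and stromal genes that the rule limits in members, so it cannot show how much background remained. After the subtraction 557 genes were past 2-fold on the higher and 376 on the lower side, without regard to intervals. These called shares of all genes are the background for the counts of each comparison below, that is, 16.7% higher and 9.66% lower for HFD against db/db 16w, and 7.36% and 9.29% with db/db 8w in its place.

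Most genes of fatty acid uptake and transport did not pass 2-fold between the large libraries. Of 18 measured members of this list, 3 were called higher and 2 lower in HFD than in db/db 16w, with a median log2 ratio of −0.22. Fabp4, the cytoplasmic fatty acid carrier (chr3:10204088-10208576, minus strand, GRCm38), stood at 31272, 38064, 77422 and 38427 CPM, first or second among all genes in every library. The db/db 16w level was thus the only one set apart, 1.02 log2 units over db/db 8w and 1.01 over HFD. The fatty acid receptor Cd36 spanned a narrower range, with 6650, 7490, 5906 and 5615 CPM in the same order. Lpl stood at 4829, 3869, 1591 and 1183 CPM, higher in the libraries with few capillary cells than in those with many, but it was also present at 2755 CPM in the db/db 16w and 3202 CPM in the HFD cells under the endothelial threshold. The caveolar coat protein Cavin2 was called lower in db/db 16w than in db/db 8w and higher in HFD than in db/db 16w (1821, 1905, 596 and 1811 CPM, log2 ratio HFD over db/db 16w 1.60, interval 1.51 to 1.70). Its partner Cav1 did not pass 2-fold in either comparison (1583, 2012, 1250 and 1667 CPM).

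Of the other carriers and lipases, Fabp5 was called higher in HFD than in db/db 16w (475, 603, 716 and 1509 CPM), whereas the cells under the threshold had 861 CPM in HFD and 1643 CPM in db/db 16w. The triglyceride lipase Pnpla2 was called lower in HFD (633, 284, 660 and 170 CPM, log2 ratio −1.96, interval −2.10 to −1.82) and stood at 70.3 and 76.7 CPM in the db/db 16w and HFD cells under the threshold. The glycerol channel Aqp7, the lipase inhibitor Angptl4 and the retinoid carrier Rbp7 did not pass 2-fold between HFD and db/db 16w (log2 ratios −0.59, −0.19 and 0.04). Gpihbp1, used by the rule, read 2296, 2816, 5101 and 1531 CPM.

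**Figure D3:**
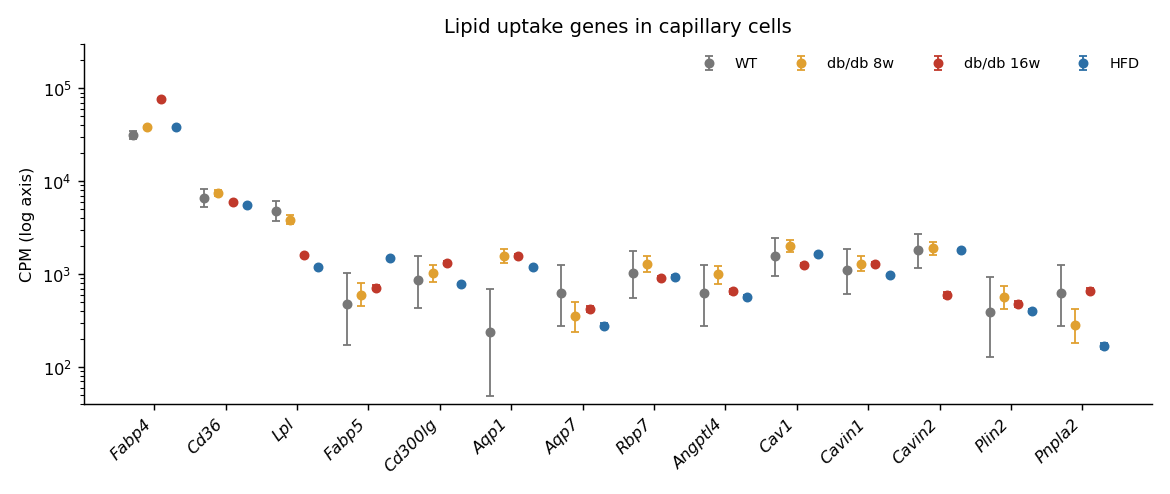
CPM of fatty acid uptake and transport genes in the capillary cells of the 4 libraries on a log axis, with exact Poisson 95% intervals of the counts. Fabp4 was highest in db/db 16w (77422 CPM), Cavin2 was lowest there (596 CPM), and Cd36 lay between 5615 and 7490 CPM in all 4 libraries.

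Most transcription factors of fat capillaries did not pass 2-fold between the large libraries either. Of 24 measured, 5 were called higher and 1 lower in HFD than in db/db 16w, with a median of 0.30. Tcf15 and Pparg, which drive the fatty acid uptake programme of these vessels, had 313 and 323 CPM in db/db 16w and 271 and 250 CPM in HFD, and their partner Meox2 had 88.5 and 221 CPM with a log2 ratio of 1.33. The flow-responsive factor Klf4 was called higher in HFD (633, 627, 429 and 1741 CPM, log2 ratio 2.02), while Klf2 was not (950, 556, 820 and 1056 CPM). Klf4 went the same way in the cells under the threshold, at 806 CPM in HFD and 221 CPM in db/db 16w. Ets1, which controls many endothelial promoters, was called higher in HFD as well (158, 568, 211 and 556 CPM, log2 ratio 1.40).

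Genes shared by all endothelium and the receptors of vascular growth factors moved in both directions. Of 30 pan-endothelial genes, 2 were called higher and 6 lower in HFD, with a median of −0.22. Among those lower were Ly6c1, a surface protein of vascular endothelium (3008, 1562, 3063 and 1095 CPM), the secreted factor Egfl7 (1188, 876, 1193 and 464 CPM) and the calcitonin receptor partner Ramp2 (554, 757, 1185 and 337 CPM). Pecam1 did not pass 2-fold (1188, 1171, 981 and 998 CPM), nor did the angiopoietin receptor Tek (317, 225, 145 and 199 CPM) and the related Tie1 (79.2, 225, 276 and 240 CPM). Of 7 measured genes of VEGF and angiopoietin signalling, 2 were called higher and 1 lower in HFD. The VEGF coreceptors Nrp1 and Nrp2 were those higher, with log2 ratios of 1.56 and 2.10. In all 4 libraries Nrp1 read 158, 674, 261 and 769 CPM, so that db/db 8w lay near HFD.

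A further difference lay in Hspa1a, Hspa1b and Hspb1, which had the highest levels of the listed heat-shock genes in WT and db/db 16w. All 3 were higher in the capillary cells of those libraries than in those of db/db 8w and HFD. The upstream sequences of the genes concerned are shown because they carry the heat-shock element GAANNTTC, the short inverted repeat that heat-shock factor binds. They were taken from RefSeq promoters (GRCm38.p6), run over the 250 bases before the annotated start, and have the element in capitals.
Hspa1a (chr17:34972157-34972406, minus strand): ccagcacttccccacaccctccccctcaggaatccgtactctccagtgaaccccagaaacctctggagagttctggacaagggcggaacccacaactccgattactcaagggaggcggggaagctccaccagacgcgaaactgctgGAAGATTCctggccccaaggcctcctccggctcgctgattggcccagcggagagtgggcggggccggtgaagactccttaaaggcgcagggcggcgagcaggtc
Hspa1b (chr17:34959239-34959488, minus strand): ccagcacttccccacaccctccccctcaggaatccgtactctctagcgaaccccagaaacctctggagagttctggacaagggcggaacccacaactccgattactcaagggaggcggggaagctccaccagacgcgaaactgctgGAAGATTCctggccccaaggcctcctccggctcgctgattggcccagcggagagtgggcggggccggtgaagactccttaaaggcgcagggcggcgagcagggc
Hspb1 (chr5:135887669-135887918, plus strand): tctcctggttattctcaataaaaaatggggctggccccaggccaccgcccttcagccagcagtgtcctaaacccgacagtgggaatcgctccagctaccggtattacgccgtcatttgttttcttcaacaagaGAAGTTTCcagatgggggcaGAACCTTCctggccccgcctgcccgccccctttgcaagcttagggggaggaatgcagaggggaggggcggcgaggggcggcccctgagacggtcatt
The element reads the same on both strands. Hspa1a and Hspa1b, near-identical neighbouring genes of the HSP70 chaperone, each held 1 element 104 bases before the start, and their windows differed at 3 of 250 bases. Hspb1, which encodes the small chaperone HSP27, held 2 elements, 117 and 97 bases before the start. Among all promoters listed, 2199 of 32851 windows, or 6.69%, held the element. It was not found in either window of Dnajb1 or Hsph1 and was found in 1 of 3 of Dnaja1. No window was listed for Hsp90aa1 or Hspa8, so these genes were not searched.

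Transcripts of these 3 genes spanned wide ranges. Hspa1a gave 8788, 1396, 5402 and 520 CPM, and Hspa1b gave 6650, 1148, 4775 and 312 CPM. Since reads of the 2 copies can be split by the counting, their sum was also taken, and it was 15438, 2544, 10176 and 831 CPM. Hspb1 gave 4275, 2615, 6507 and 1013 CPM. All 3 were called higher in db/db 16w than in db/db 8w and lower in HFD than in db/db 16w, where the log2 ratios were −3.38 for Hspa1a, −3.94 for Hspa1b and −2.68 for Hspb1. The cells under the endothelial threshold went the same way between HFD and db/db 16w (log2 ratios −2.92, −3.81 and −1.16) at lower levels, such as 122 CPM of Hspb1 in HFD. Between db/db 16w and db/db 8w they went the opposite way (−1.26, −1.51 and −1.89, against 1.95, 2.06 and 1.32 in capillary cells). Other chaperones did not follow between HFD and db/db 16w. Hsp90aa1 and the co-chaperone Dnaja1 were called higher in HFD (log2 ratios 2.01 and 1.41), while Hspa8, Dnajb1 and Hsph1 did not pass 2-fold (0.66, −0.33 and −0.01). Hspa8, at 2177 CPM in HFD, stood above Hspa1a, Hspa1b and Hspb1 there.

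Several immediate-early genes, which are switched on within minutes of a stimulus, were higher in HFD. Egr1 gave 2296, 1254, 973 and 4838 CPM and was called higher in HFD than in db/db 16w (log2 ratio 2.31), and the cells under the threshold differed by 3.42. Fosb gave 158, 201, 127 and 1136 CPM (log2 ratio 3.16, against 3.69 in the cells under the threshold), and Fos gave 1583, 710, 635 and 2058 CPM (1.70). Zfp36, which shortens the life of inflammatory transcripts, was called lower in HFD (−1.24), and Jun did not pass 2-fold (0.59). Over the list of 24 immediate-early and heat-shock genes, 7 were called higher and 4 lower in HFD, with a median of 0.44.

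**Figure D4:**
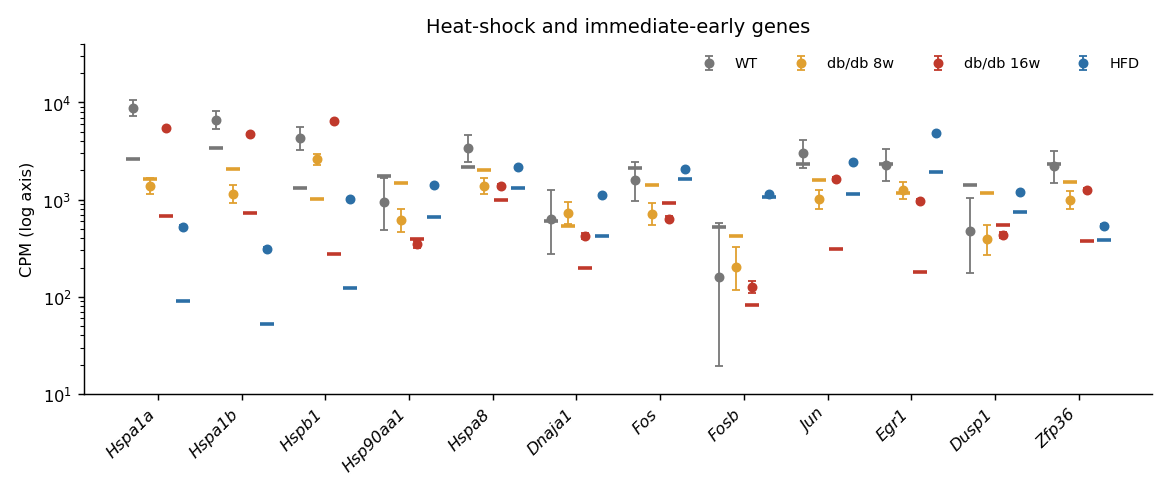
CPM of heat-shock and immediate-early genes in the capillary cells of the 4 libraries (points, with exact Poisson 95% intervals) and in the cells under the endothelial threshold of the same library (dashes), on a log axis. Hspa1a, Hspa1b and Hspb1 were lowest in HFD, where Egr1 (4838 CPM) and Fosb (1136 CPM) were highest among the capillary cells of the large libraries.

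Fatty acid oxidation genes and other targets of the lipid-sensing PPAR receptors had the highest share of calls of the pathway lists, and adipocyte transcripts went with them. Of 16 measured, 13 were called higher and 1 lower in HFD than in db/db 16w, with a median of 1.31 against 0.17 for all genes. Acadl and Acadm, acyl-CoA dehydrogenases of beta-oxidation, read 86.0 and 36.8 CPM in db/db 16w and 281 and 230 CPM in HFD. The electron carrier Etfb read 121 and 275 CPM. Ucp2, an uncoupling protein homologue, was the 1 gene called lower, at 399 and 154 CPM. Markers of adipocytes were also higher, at 862 CPM in HFD against 33.0 CPM in db/db 16w, summed over 12 genes of which 2 were at 0 in db/db 16w and none in HFD, and stood at 236 CPM in the HFD cells under the threshold. In cells with no adipocyte marker UMI, 4 of 13 were called higher and none lower, with a median of 0.71. Of all 3602 genes in that setting 603 were called higher and 371 lower, with a median of 0.17. In cells of 1000 to 3000 UMIs the count called higher was 10 of 15, against 532 of all 3572 genes. With db/db 8w in place of db/db 16w it was 11 of 16.

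The 10 genes ranked highest by the interval of the ratio began with Cox8b, a cytochrome c oxidase subunit of brown fat (chr7:140898945-140900446; 247 CPM in HFD against 2.49 CPM in db/db 16w), the muscle-type carrier Fabp3 (226 against 2.49 CPM) and the uncoupling protein Ucp1 (chr8:83290352-83298452; 188 against 2.49 CPM). Cidea, a lipid droplet protein, and Pck1, which makes glycerol for triglyceride, were also among them. Each of these 5 was higher in the HFD capillary cells than in the HFD cells under the threshold, which was a condition of the ranking. The cells under the threshold also read higher in HFD than in db/db 16w. They had 52.0 against 2.30 CPM of Cox8b, 42.7 against 2.10 of Fabp3 and 33.0 against 1.05 of Ucp1. Cidea had 17.8 against 0.363 CPM in them and Pck1 27.7 against 0.161. Egr3, an immediate-early transcription factor (chr14:70077203-70082614), read 79.2, 47.3, 6.23 and 305 CPM. In the cells under the threshold it read 72.8 CPM in HFD and 2.54 CPM in db/db 16w. The rest were Fam71a, Fbxl18, Nabp1 and Caprin2, each also higher in HFD than in db/db 16w in the cells under the threshold.

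At the other end were 4 haemoglobin genes and Alas2, which are abundant in red blood cells. The red blood cell list summed to 78945 CPM in the capillary cells and 10620 CPM in the cells under the threshold of db/db 16w, and to 65.9 CPM in the HFD capillary cells. Also among the 10 lowest were Hspa1b, Doc2b, a calcium sensor of vesicle release (0.463 CPM in HFD against 53.0 CPM in db/db 16w), the noncoding Snhg9, and the steroid sulfate carrier Slc10a6. Slc10a6 read 79.2, 23.7, 123 and 6.71 CPM, with 1 count in WT, and was at 3.75 CPM in the db/db 16w cells under the threshold. Snhg9 is annotated as antisense, and how its reads were assigned by strand is not given in the sources used here.

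Genes of antigen presentation by MHC class I and II were split between HFD and db/db 16w. The class I genes called there were on the db/db 16w side and the class II genes on the HFD side. Of 14 measured, 8 were called higher and 1 lower in db/db 16w than in db/db 8w (median 1.23, against 10.1% and 18.5% of all genes called), and 3 were called higher and 6 lower in HFD than in db/db 16w (median −0.81). H2-D1 and H2-K1, classical class I heavy chains, gave 1663, 1231, 3446 and 973 CPM and 1029, 816, 2055 and 915 CPM. Their light chain B2m gave 1583, 1100, 2388 and 1474 CPM and did not pass 2-fold between HFD and db/db 16w (−0.70). Psmb8, Psmb9, Tap1 and H2-T23 of the class I pathway, named after their values were seen, were also called on the db/db 16w side of both comparisons. The class II genes H2-Aa, H2-Eb1 and Cd74, named in the same way, were called higher in HFD (log2 ratios 1.43, 1.77 and 1.39). Cd74 stood at 346 CPM there against 4836 CPM in the HFD cells under the threshold. With db/db 8w in place of db/db 16w none of 13 genes was called against HFD, and the median was 0.40.

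Interferon-response genes were split. Of 24 measured, 7 were called higher and 2 lower in HFD than in db/db 16w, with a median of −0.07, and of 21 measured 8 were called higher and none lower in db/db 16w than in db/db 8w, with a median of 1.10. The membrane protein Ifitm3 gave 633, 461, 1576 and 1137 CPM, and Ly6e gave 1583, 556, 1192 and 1064 CPM. Iigp1, an interferon-induced GTPase, gave 0, 213, 335 and 1179 CPM and was called higher in HFD (log2 ratio 1.82), where the cells under the threshold had 142 CPM. With db/db 8w in place of db/db 16w, 9 of 24 were called higher in HFD and none lower. Against only the db/db 16w cells with a Y-linked UMI, 2 were called higher and 9 lower, with a median of −0.93. Of all 4041 genes in that setting 8.29% were called higher and 13.1% lower, with a median of −0.15.

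Between HFD and db/db 16w, matrix and adhesion genes were on the HFD side, next to more stromal transcript there. Of 16 measured basement membrane genes, 8 were called higher and none lower in HFD than in db/db 16w, with a median of 1.06. In cells of 1000 to 3000 UMIs, 15 such genes gave 3 higher and 2 lower, with a median of 0.13. All 3572 genes gave 532 and 423 there, with a median of 0.07. With db/db 8w in place of db/db 16w, 4 of 17 basement membrane genes were called higher in HFD and 2 lower. Their median was 0.27, against −0.08 for all genes. Col4a1, the type IV collagen chain of capillary walls, read 1663, 1254, 705 and 1633 CPM. The matricellular protein Sparc read 1504, 2733, 1749 and 3304 CPM (log2 ratio 0.92) and stood at 4096 CPM in the HFD cells under the threshold. Stromal markers summed to 1108, 379, 64.8 and 279 CPM, lowest in db/db 16w, with 12 of 12 detected in both large libraries. Their part in these values was not tested. Of 7 measured genes of leukocyte adhesion and chemokines, 4 were called higher in HFD. The homing chemokine Cxcl12 read 1267, 532, 370 and 959 CPM, and the leukocyte ligand Icam1 read 0, 47.3, 44.2 and 286 CPM (log2 ratio 2.69, interval 2.35 to 3.06). With db/db 8w in place of db/db 16w, 1 of 8 was called higher and 1 lower.

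The other lists had calls in both directions or few measured genes. Of 9 measured Notch pathway genes, 1 was called higher and 3 lower in HFD than in db/db 16w. The Notch target Hes1 (238, 94.7, 727 and 329 CPM) and the ligand Dll4 (79.2, 82.8, 201 and 55.3 CPM) were highest in db/db 16w, while the receptor Notch1 was not (396, 319, 156 and 242 CPM). Of 18 genes of TGF-beta and BMP signalling, 5 were called higher and 2 lower, and the receptor Tgfbr2 was among the latter (396, 473, 604 and 154 CPM). Of 12 genes of the unfolded protein response, 3 were called higher and none lower (median 0.65), led in level by the chaperone Hspa5 (950, 497, 265 and 970 CPM). Of 13 glucocorticoid targets, 2 were called higher and 5 lower. Of 13 genes of oxidative stress, 1 was called higher and 4 lower, with the thioredoxin inhibitor Txnip at 1504, 2544, 3694 and 1424 CPM. The metallothionein Mt1 was also lower in HFD (448 and 69.2 CPM), as in the cells under the threshold (2529 and 488 CPM). Of 11 insulin and IGF genes 3 were called higher and none lower, of 10 glycolysis genes 2 and 1, of 4 tip cell genes 1 and 1, of 7 vasoactive genes 2 and none, of 10 arterial genes 4 and 2, of 8 venous genes 2 and 1, and of 12 junction genes none and 1. Many of these medians changed sign with db/db 8w in place of db/db 16w. Those of the Notch, TGF-beta and BMP, vasoactive, insulin, VEGF, arterial and junction lists turned to −0.43, −0.38, −0.36, −0.33, −0.18, −0.10 and −0.28, and that of oxidative stress turned from −0.05 to 0.77.

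**Figure D5:**
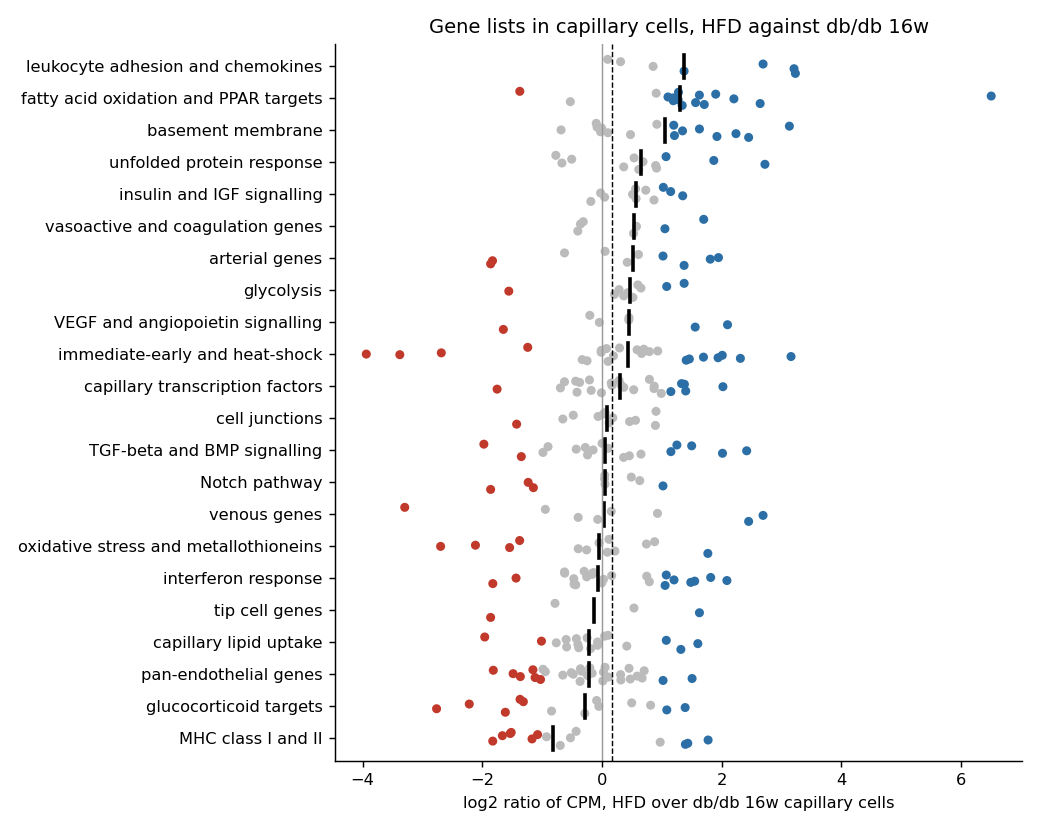
Log2 ratio of HFD over db/db 16w for each measured gene of each list (points; blue, called higher; red, called lower; grey, neither), with the list median (black bar) and the median of all genes (dashed line, 0.17). The fatty acid oxidation list had a median of 1.31 and the MHC list one of −0.81.

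The db/db libraries of the 2 ages were compared in the same way, with 46 cells at 8 weeks. Over 3658 genes, 369 (10.1%) were called higher and 675 (18.5%) lower in db/db 16w than in db/db 8w, with a median of −0.28. The higher share of these calls was 35.3%, against 52.1% under median-of-ratios scaling and 45.4% in cells under 20 haemoglobin UMIs per 10000. Of 18 lipid uptake genes 2 were called higher, Fabp4 and Pnpla2, and 2 lower, Lpl and Cavin2. Of 23 transcription factors none was called higher and 3 lower: Tcf4, Fli1 and Ets1. Of 30 pan-endothelial genes 2 were called higher and 1 lower. After the haemoglobin genes, the gene ranked highest was Tmem252, a membrane protein gene (chr19:24674008-24682233), with 0, 11.8, 490 and 50.0 CPM, and 5.09 CPM in the db/db 16w cells under the threshold. Hes1, Pfdn5, Igtp, Hspa1b and Per1 followed. Among the 10 ranked lowest were the nuclear noncoding RNA Neat1 (554, 840, 151 and 907 CPM), the ribosomal repeat transcript AY036118 (871, 2733, 122 and 1074 CPM) and the protease Adamts9 (317, 556, 66.1 and 452 CPM). In each of these 3 genes db/db 16w stood apart from all 3 other libraries, and its mitochondrial share was also the lowest. The cells under the threshold were lowest in db/db 16w too for Neat1 (905, 622, 102 and 948 CPM) and AY036118 (818, 754, 57.8 and 890 CPM). Adamts9 read 1.07, 4.10, 1.78 and 35.4 CPM in them. The 10 also held Zfp608, Srd5a3, Smarcc1, Maml3, Baz1b and Brwd1.

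Against WT, with 5 cells, few genes could be measured. In db/db 8w 26 of 3312 genes (0.785%) were called higher and 98 (2.96%) lower, in db/db 16w 68 of 4373 (1.55%) and 304 (6.95%), and in HFD 41 of 4625 (0.886%) and 261 (5.64%). Under median-of-ratios scaling the higher share of these calls went from 21.0% to 85.5%, from 18.3% to 80.3% and from 13.6% to 74.3%, so no direction is given for the whole. The 3 comparisons share the WT cells. Among genes that met the conditions of the ranking, those called higher in all 3 obese libraries were Aqp1 with 3 counts in WT, Itgb1 with 1 and Sh3bp5 with 0. Genes outside those conditions are not listed. Aqp1, a water channel of capillaries (chr6:55336432-55348555), read 238, 1586, 1575 and 1204 CPM. Fabp4 was past 2-fold in db/db 16w alone, with log2 ratios to WT of 1.31 there, 0.28 in db/db 8w and 0.30 in HFD. Among the 10 ranked that were called lower in all 3 were the immediate-early receptor Nr4a1 (1742, 296, 246 and 301 CPM, 22 counts in WT), Tcim (1900, 521, 216 and 322 CPM, 24 counts) and Xdh, which makes uric acid (1346, 355, 141 and 200 CPM, 17 counts). Slc35d1, Rasd1, Tsc22d1, Mta1, Luc7l, Hmox1 and Dnajb1 completed them, with 4 to 15 WT counts each.

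Within HFD, capillary cells were set beside the 213 arterial and venous cells of the same library, a difference that the rule in part made. Of 3438 genes, 10 (0.291%) were called higher and 53 (1.54%) lower in capillary cells, with a median of −0.04. Of 11 arterial genes outside the rule, none was called higher and 6 lower: Fbln5, Stmn2, Fbln2, Tm4sf1, Efnb2 and Mecom. The elastic fibre protein Fbln5 read 74.5 CPM in capillary and 415 CPM in arterial and venous cells. Of 8 venous genes, 1 was called lower, the fenestral diaphragm gene Plvap. Of 18 lipid uptake genes, 1 was called higher and 1 lower.

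Capillary cells also varied among themselves. After thinning to 500 UMIs, the variance over the mean of a gene was near 1 for most genes, with a median of 1.08 over 694 genes in db/db 16w and 1.04 over 704 genes in HFD, which is close to counting noise. It was above 2 for 19 genes in db/db 16w and 4 in HFD. Hbb-bs, a haemoglobin chain, was at 121 in db/db 16w, Fabp4 at 7.27 in db/db 16w and 3.50 in HFD, Hspb1 at 4.07 in db/db 16w, and Egr1 at 1.62 in HFD. The 20 most variable genes of each library had 7 in common, among them Aqp1, Fabp4, Hspa1b and Rgs5. The variance over the mean of Fabp4 and Aqp1 was thus above the median of all genes in both large libraries. Genes of similar level were not compared, and Fabp4 had a mean of 40.5 UMIs per thinned cell in db/db 16w and 19.5 in HFD. Whether its level, or the haemoglobin UMIs within the fixed total of db/db 16w cells, raised its ratio was not tested. No subgroup was called from these ratios.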

How the data were processed

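Droplet-based 3′ RNA-seq (10x) was run on the SVF of 4 pools. The authors aligned reads to mm10 and deposited UMI counts per gene and cell, not normalized; the file headers name Cell Ranger 6.0.0 and the submitters' processing notes 7.1.0. Quality limits were 250 and 6000 genes, 500 and 30000 UMIs (bounds excluded) and a mitochondrial share below 15%. The members and gene lists were chosen with earlier results of these data known. Counts were summed per library over the capillary cells, and ratios carry exact conditional binomial intervals, with no test. Scripts were tested on simulated data. For db/db 16w against db/db 8w, 119 genes that had not been changed were called among 3388 genes run. For HFD against db/db 16w there were 0 among 3273. Simulated 2-fold changes were recovered in 42% and 38% of genes in these comparisons, and 3-fold changes in 94% and 100%. Doublets scored by Scrublet in scanpy 1.11.5 were kept and removed as an alternative (30 HFD, 12 db/db 16w and 3 db/db 8w members). Named genes were the 10 highest and 10 lowest by the interval bound nearest 0, if at least as high in capillary cells as in cells under the endothelial threshold, without rule, mitochondrial, ribosomal and sex-linked genes or unnamed models; list examples were taken by level, but the class II genes, Psmb8, Psmb9, Tap1, H2-T23, Acadm, Icam1, Mt1 and the stress genes after Egr1 were named after their values were seen. Positions are GRCm38 (GENCODE M21), in which 99.6% of 32285 gene IDs were found. Sequences are from RefSeq. Numpy 2.4.6, scipy 1.17.1 and pandas 2.3.3 were used. Among the alternatives, 12 were added after seeing the data: haemoglobin, depth and adipocyte subsets, scaling without red blood cell genes, no mitochondrial limit, a threshold of 20, db/db 8w in place of db/db 16w, and those on Xist, Y-linked genes and the share. Some genes that the rule ranks are not reported here.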

Additional observations from a re-analysis of the deposited data

Results flagged for a closer look

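Barcodes that were left out for a high mitochondrial share, and so enter no comparison, held capillary signal above the WT level. Of the barcodes over the 15% limit that met the other quality limits, 52.7% in db/db 16w (29 of 55) and 15.5% in HFD (1857 of 11948) met the capillary rule, against 0.619% in WT (10 of 1615). With these counted, capillary cells numbered 2778 in HFD (16.0%) and 1363 in db/db 16w (23.1%). Barcodes with endothelial genes together with macrophage or stromal genes over the limit were also left out, and they made up 1.03% of quality-passing cells in db/db 16w and 2.18% in HFD, against 0.236% in WT. Of these mixed barcodes, 25 of 60 in db/db 16w and 74 of 119 in HFD were predicted doublets.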

How the results depend on the processing

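The share of capillary cells was 22.8 percentage points higher in db/db 16w than in WT, 16.8 higher in HFD than in WT and 0.311 higher in db/db 8w than in WT, and the HFD share minus the db/db 16w share was −6.01. In the same order of db/db 16w against WT, HFD against WT and HFD against db/db 16w, the values were 24.2, 19.7 and −4.48 with a threshold of 20, 17.3, 3.56 and −13.7 with a threshold of 80, and 13.8, 18.0 and 4.16 with cells thinned to 1000 UMIs, where the last one reversed. Leaving macrophage-rich cells out of the denominator gave 36.0, 27.0 and −9.01, and 0.596 for db/db 8w against WT. HFD against WT was 15.8 with no mitochondrial limit, 18.9 with predicted doublets removed, 20.6 with no limit on arterial and venous genes and 18.7 with mixed barcodes counted. db/db 16w against WT was 23.9 with doublets removed, and HFD against db/db 16w was −2.42 with no arterial and venous limit.

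Counts of genes past 2-fold against WT, given as higher and lower for the libraries 8w, 16w and HFD in turn, were 171 and 29, 335 and 82, and 243 and 84 with median-of-ratios scaling, 1172 and 493, 1038 and 1822, and 1245 and 1720 with 2-fold alone, and 1232 and 575, 1147 and 1780, and 1227 and 1721 with each cell weighted equally. Both of the latter count genes without regard to their intervals where WT holds 5 cells. With a mitochondrial limit of 10% the counts that moved were 14 and 44 for db/db 8w, 43 higher for db/db 16w, and 16 and 173 for HFD. With no mitochondrial limit 117, 243 and 178 were higher in the 8w, 16w and HFD libraries. In HFD 26 were higher in cells of 1000 to 3000 UMIs, and in db/db 16w 42 were higher without mitochondrial, ribosomal protein genes and Malat1. Between db/db 16w and db/db 8w, 625 were higher with 2-fold alone and 732 with equal weights.

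Between HFD and db/db 16w, 328 higher and 227 lower genes passed with a filter of 100 CPM and 2373 and 929 with no filter, which change the number of genes tested, and 579 lower with median-of-ratios scaling. Against the 70 db/db 16w cells with a Y-linked UMI there were 335 and 528, and with db/db 8w in place of db/db 16w 275 were higher. Without the db/db 16w cells with a Xist UMI there were 644 and 357. Of the calls reported, 484 higher and 343 lower ones were kept in cells under 20 haemoglobin UMIs per 10000, and 457 and 284 in cells with no adipocyte marker UMI. Of the list medians 758 stayed within an interval set by the spread among the genes of the list, and 12 moved. In lists of few measured genes this interval spans all of their values, so that staying within it says little. Among those that moved was fatty acid oxidation in HFD against db/db 16w, at 0.98 with a threshold of 80. Of the values of single genes 900 stayed, 133 moved and 1 reversed: Dnajb1 in db/db 16w against WT, from −1.93 to 0.49 in cells of 1000 to 3000 UMIs. The cause of these changes was not tested unless stated.

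No paired analysis was possible because each group is 1 library, and for the same reason no replicate could be left out. The 5 WT and 46 db/db 8w cells set the precision of every comparison with them, and values under 238 CPM in WT and 35.5 CPM in db/db 8w rest on fewer than 3 counts.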

Other observations

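Of 10 clock genes, chosen after their values were seen, 5 passed 2-fold between the large libraries, each lower in HFD. In the order WT, 8w, 16w and HFD the capillary cells held 317, 118, 353 and 30.1 CPM of Nr1d1, which encodes the clock repressor REV-ERB alpha, a log2 ratio of HFD over db/db 16w of −3.55, against −1.76 in the cells under the endothelial threshold. Dbp, a clock output factor, read 0, 11.8, 55.5 and 6.01 CPM (−3.20), and the repressors Per1 and Cry2 had ratios of −2.22 and −2.44. In the cells under the threshold the ratios of Dbp, Per1 and Cry2 were −0.58, −0.89 and −0.57. Arntl, the activator that these repressors oppose, read 29.8 CPM in HFD and 20.6 CPM in db/db 16w (0.54), and Clock differed by 0.35. Tef, also called lower, had a ratio of −1.40, while Nr1d2, Cry1 and Bhlhe40 did not pass 2-fold (−0.48, −0.91 and −0.08).

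The protease inhibitor Timp4, also chosen after its values were seen, read 950, 1763, 1524 and 204 CPM in the same order, a log2 ratio of −2.90 for HFD over db/db 16w.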
